A study of Mus musculus with 6 samples.

Results

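The cytosolic ribosomal protein genes were taken as protein-coding gene models whose symbol begins with Rps, Rpl or Rplp followed by a number, which leaves out the mitochondrial ribosomal proteins. The rule found 83 genes among 40303 gene models, 31 of the small 40S subunit (Rps) and 52 of the large 60S subunit (Rpl, with the stalk proteins Rplp). Each gene encodes a protein of the ribosome or a close paralog of one. Ribosomal proteins are made in near-equal amounts to match the ribosomal RNAs, and their transcripts are among the most abundant of growing tumour cells. Their messenger RNAs typically start with a C and a run of pyrimidines, the 5′ TOP motif, through which mTORC1 and the RNA-binding protein Larp1 control their translation and stability. mTORC1 is in turn activated by amino acids, glutamine among them.

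The samples were tumours of CT26, a mouse colon carcinoma line, grown under the skin of wild-type BALB/c mice. 3 mice received PEGylated glutaminase, an enzyme that breaks down circulating glutamine, at 50 IU per kg into the peritoneum, in 2 injections 3 days apart. The other 3 received the vehicle, phosphate-buffered saline with 10% glycerol, on the same schedule. Every tumour carries the host's stroma, vessels and immune cells beside the implanted line, so in these bulk samples fewer cells of a type and less RNA per cell cannot be told apart. Libraries held 16620223, 16791267 and 16455052 reads after PEG-glutaminase and 17574698, 18051480 and 17380129 after vehicle. Values below are normalized counts, which are reads divided by a size factor of the library. The transcripts of Krt20, Krt18 and Cdh1 were present, at 2349 to 3652, 140 to 201 and 31.1 to 37.0 normalized counts after PEG-glutaminase and 4317 to 5226, 131 to 263 and 52.0 to 125 after vehicle. The intestinal regulator Cdx1 was at 0 in all 6 libraries, and Epcam was at 2.1 to 7.9 after PEG-glutaminase and 6.9 to 58.0 after vehicle. Krt8 and Krt19 were also low, at 9.9 to 27.8 and 8.9 to 19.5 after PEG-glutaminase and 6.9 to 9.7 and 0.98 to 4.8 after vehicle.

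Ribosomal protein transcripts took a slightly smaller share of the reads after PEG-glutaminase. They made up 7.60%, 7.22% and 7.54% of reads in the PEG-glutaminase libraries, against 7.71%, 9.70% and 7.88% in the vehicle libraries. The groups did not overlap, but vehicle 1 and vehicle 3 lay close to the treated tumours and vehicle 2 stood far above all others. The means were 7.46% ± 0.20 after PEG-glutaminase and 8.43% ± 1.11 after vehicle (SD, n = 3 each), and without vehicle 2 the vehicle mean was 7.79%. Both subunits showed this arrangement. The Rps genes held 2.95%, 2.83% and 2.90% of reads after PEG-glutaminase and 2.96%, 3.75% and 3.07% after vehicle. The Rpl genes held 4.65%, 4.39% and 4.65% after PEG-glutaminase and 4.75%, 5.96% and 4.81% after vehicle.

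**Figure D1:**
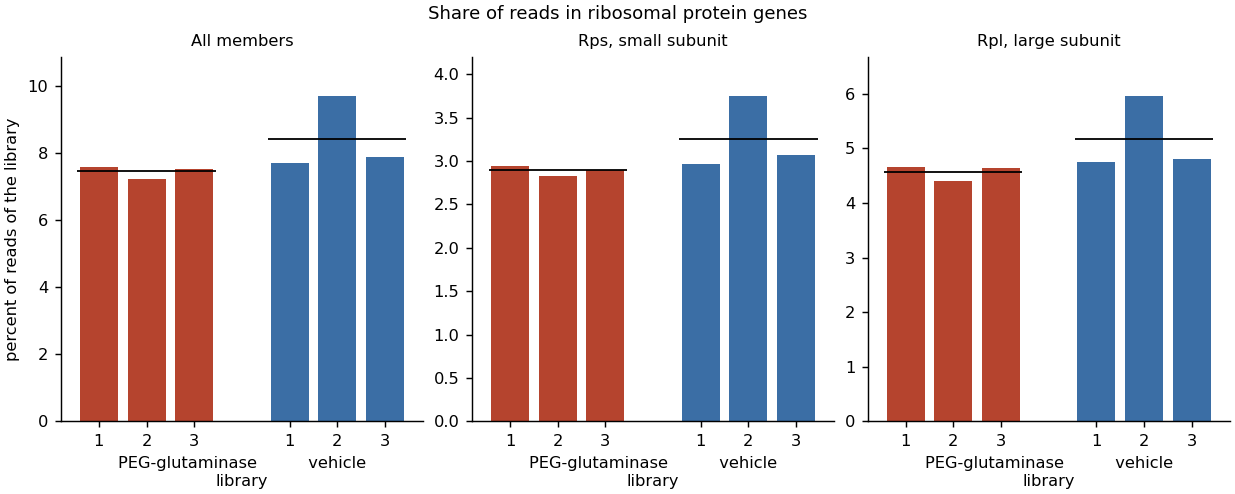
Percent of each library's reads in all 83 ribosomal protein genes, in the 31 Rps genes and in the 52 Rpl genes, with 1 bar per library and a line at each group's mean. The PEG-glutaminase libraries (red) hold 7.22% to 7.60% over all genes and the vehicle libraries (blue) 7.71% to 9.70%, with vehicle 2 far above the other 5.

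Gene by gene, 80 of the 83 reached a mean of 10 normalized counts and were tested. The log2 difference, PEG-glutaminase minus vehicle on the log2(normalized count + 1) scale, was below 0 for 79 of the 80, where 50.0% of all 13557 tested genes were below 0. The median was -0.19 over the 80 genes and 0.0015 over the other tested genes. Libraries are shared by all members, so these counts describe the 6 tumours and are not independent observations. In 35 of the 80 genes every PEG-glutaminase value lay under every vehicle value, against 12.7% of all tested genes. Without vehicle 2 the number was again 35 of 80, beside 16.6% of all genes, while the median became -0.065 and 68 of 80 differences stayed below 0. Leaving out a vehicle tumour cannot lower the number without overlap. In 75 of the 80 genes vehicle 2 was above both other vehicle tumours, so leaving it out could not change their overlap. The unchanged 35 is therefore no measure of the weight of vehicle 2. Vehicle 2 held the highest value of the 6 libraries for 74 of the 80 genes, beside 22.4% of other tested genes. PEG-glutaminase 2 held the lowest for 51 of the 80, beside 24.4% of other genes.

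No member passed the test with limma and Benjamini-Hochberg adjustment over all genes, in which 0.0295% of genes were called lower and 0.00738% higher. The smallest adjusted p of a member was 0.104, for Rps12. At an unadjusted p under 0.05, 27 members were lower and 0 higher, where 9.51% of all genes were lower. Without vehicle 2, 18 members were lower at an unadjusted p under 0.05, where 6.29% of all genes were. With no filter on low values limma called 6 members lower and 0 higher (Rps12, Rps29, Rps28, Rps27, Rpl37a and Rpl41), where 0.306% of genes were called lower and 0.28% higher. edgeR called 0 members, with a smallest adjusted p of 0.0911 and the same 0.0295% of genes called lower. DESeq2 called 13 members lower and 0 higher, 5 Rps and 8 Rpl genes, where 2.17% of genes were called lower and 1.73% higher. Of these 13, 8 were also called by DESeq2 without vehicle 2, where 0.873% of genes were called lower and 0.579% higher. Leaving out vehicle 1 in place of vehicle 2 raised the number to 21. The total over all genes moved too, with 193 to 670 called by DESeq2 when single libraries were left out. In what follows, a member is said to be called only where DESeq2 called it.

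In the small subunit the largest differences were in Rps12, Rps29 and Rps28. Rps12, a protein of the 40S head known in Drosophila for its part in cell competition, had 1955, 1836 and 1692 normalized counts after PEG-glutaminase and 2511, 3029 and 3295 after vehicle. The groups did not overlap, and the lowest vehicle tumour stood well above the highest treated one. Means were 1828 ± 132 after PEG-glutaminase and 2945 ± 399 after vehicle (SD, n = 3 each). The log2 difference of Rps12 was -0.68 ± 0.11 (SE), with an adjusted p of 0.104 in limma and 1.18e-05 in DESeq2.

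Rps29, a small zinc-binding 40S protein mutated in some patients with Diamond-Blackfan anaemia, had 7061, 5482 and 6008 normalized counts after PEG-glutaminase and 8738, 11330 and 11446 after vehicle. Its log2 difference was -0.76 ± 0.13, with an adjusted p of 0.111 in limma and 5.67e-06 in DESeq2. Rps28, which sits near the exit of the messenger RNA channel, had 4806, 3707 and 4337 after PEG-glutaminase and 5656, 7376 and 6795 after vehicle. Its log2 difference was -0.62 ± 0.12, with an adjusted p of 0.111 in limma and 0.000349 in DESeq2. In both genes vehicle 1 was the lowest vehicle tumour, and the treated tumours stayed under it. Leaving out vehicle 2 changed these 3 genes little: the limma log2 differences became -0.66 for Rps12, -0.70 for Rps29 and -0.54 for Rps28.

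Rps27, a zinc-finger protein of the 40S subunit, and Rps21, a small 40S protein, completed the called Rps genes. Rps27 had 7710, 6942 and 7356 normalized counts after PEG-glutaminase and 9566, 12453 and 9439 after vehicle, with a DESeq2 adjusted p of 0.00226. Rps21, which was singled out after its values were seen, had 7557, 6881 and 7217 after PEG-glutaminase and 8379, 12345 and 9797 after vehicle. Its DESeq2 adjusted p was 0.0117, and 0.0578 without vehicle 2. In both genes the treated tumours were close to each other and the spread lay in the vehicle group.

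Rps24 went the other way from the rest of the small subunit. This 40S protein, another gene of Diamond-Blackfan anaemia, had 12959, 9923 and 9804 normalized counts after PEG-glutaminase and 8187, 13553 and 8146 after vehicle. It was the only member of the 80 with a log2 difference above 0, at 0.16 ± 0.22 (SE; adjusted p 0.729 in limma and 0.77 in DESeq2). Vehicle 1 and vehicle 3 lay under all treated tumours and vehicle 2 above them, and without vehicle 2 the log2 difference was 0.40 ± 0.13, with a DESeq2 adjusted p of 0.117.

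**Figure D2:**
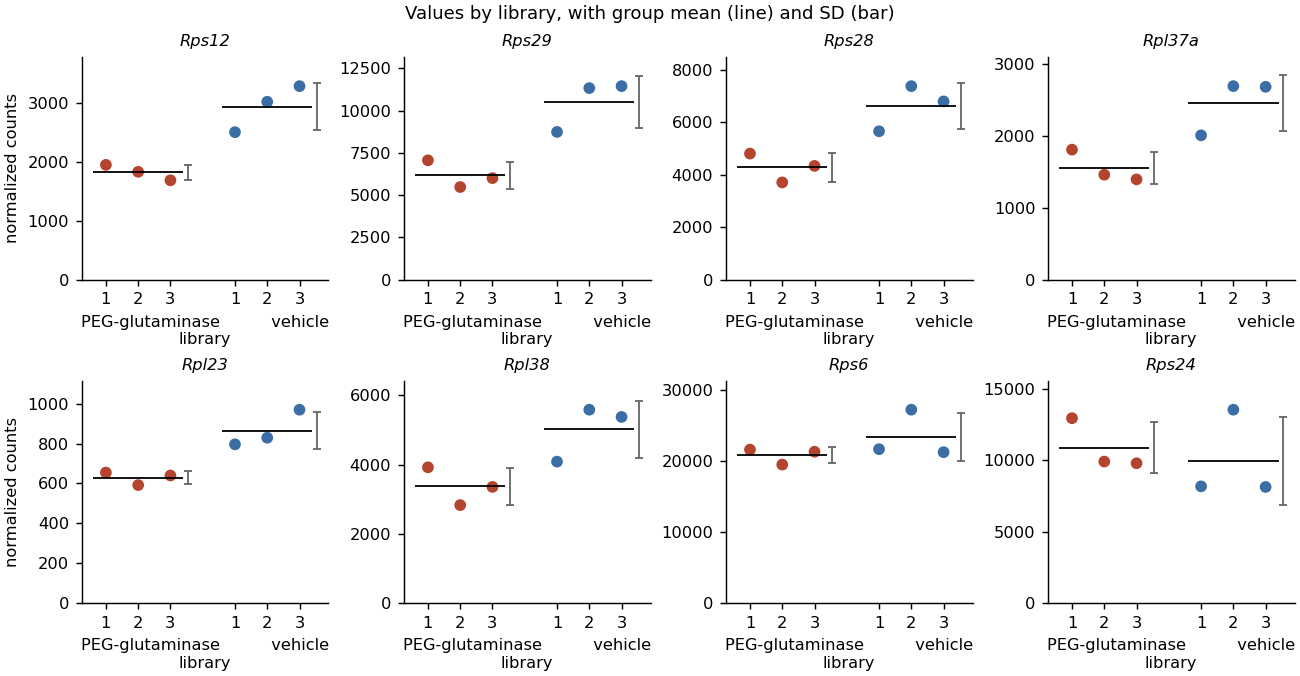
Normalized counts of 8 ribosomal protein genes in each library, with a line at each group's mean and a bar for its SD. In Rps12, Rps29, Rps28, Rpl37a, Rpl23 and Rpl38 the 3 PEG-glutaminase tumours (red) all lie under the 3 vehicle tumours (blue). In Rps6 and Rps24 the groups overlap.

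In the large subunit the called genes were Rpl37a, Rpl23, Rpl41, Rpl39, Rpl38, Rpl28, Rpl36a and Rpl18. Rpl37a, a zinc-binding 60S protein, had 1807, 1459 and 1394 normalized counts after PEG-glutaminase and 2006, 2690 and 2680 after vehicle. Its log2 difference was -0.66 ± 0.14 (SE), with an adjusted p of 0.114 in limma and 0.000912 in DESeq2. Rpl23, a core 60S protein that can also bind the p53 inhibitor Mdm2, had 655, 592 and 640 after PEG-glutaminase and 796, 829 and 969 after vehicle. Its log2 difference was -0.45 ± 0.10, with an adjusted p of 0.114 in limma and 0.0135 in DESeq2. Rpl23 was unlike most members in that vehicle 3, not vehicle 2, was its highest library, and its difference without vehicle 2 was -0.48.

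Rpl41, the smallest ribosomal protein, had 18740, 17237 and 16439 normalized counts after PEG-glutaminase and 21135, 27385 and 25351 after vehicle, with a DESeq2 adjusted p of 0.00161. Rpl39, which lines the tunnel through which the new peptide leaves, had 6812, 5219 and 7404 after PEG-glutaminase and 9111, 11222 and 9118 after vehicle, with a DESeq2 adjusted p of 0.00211. Rpl38, whose loss in mice alters the skeleton, had 3925, 2835 and 3360 after PEG-glutaminase and 4090, 5589 and 5380 after vehicle, with a DESeq2 adjusted p of 0.00701. None of these 3 genes overlapped between the groups, although vehicle 1 came close to the treated tumours for Rpl38. Without vehicle 2, DESeq2 gave an adjusted p of 0.0227 for Rpl41, 0.0608 for Rpl39 and 0.129 for Rpl38.

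The 2 largest differences of the whole family were in genes that varied widely within a group. Rpl18, a 60S protein, had 829, 822 and 485 normalized counts after PEG-glutaminase and 1056, 1588 and 1421 after vehicle. Its log2 difference was -0.95 ± 0.26 (adjusted p 0.171 in limma and 0.000854 in DESeq2), with PEG-glutaminase 3 far under the other treated tumours. Without vehicle 2 its DESeq2 adjusted p was 0.0691. Rpl28, a 60S protein that budding yeast lacks and that was singled out after its values were seen, had 1765, 1343 and 1987 after PEG-glutaminase and 2243, 3494 and 3314 after vehicle. Its log2 difference was -0.82 ± 0.21 (adjusted p 0.154 in limma and 0.000581 in DESeq2). Rpl36a, a 60S protein near the tRNA exit site, was the smallest called difference, at -0.34 ± 0.11, with a DESeq2 adjusted p of 0.0489 that became 0.14 without vehicle 2. Over the 13 called genes the mean after PEG-glutaminase was 0.525 to 0.786 times the vehicle mean.

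The 67 tested members that were not called had a median log2 difference of -0.17. In 21 of the 80 tested genes the PEG-glutaminase mean was less than 10% under the vehicle mean or above it, and in 19 it was more than 20% under it. Rpl13, singled out after its values were seen, had 23303, 12354 and 23029 normalized counts after PEG-glutaminase and 18744, 27716 and 17740 after vehicle. PEG-glutaminase 2 was the lowest library for Rpl13 by a wide margin, and the gene's standard error of 0.31 was the widest of the family.

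**Figure D3:**
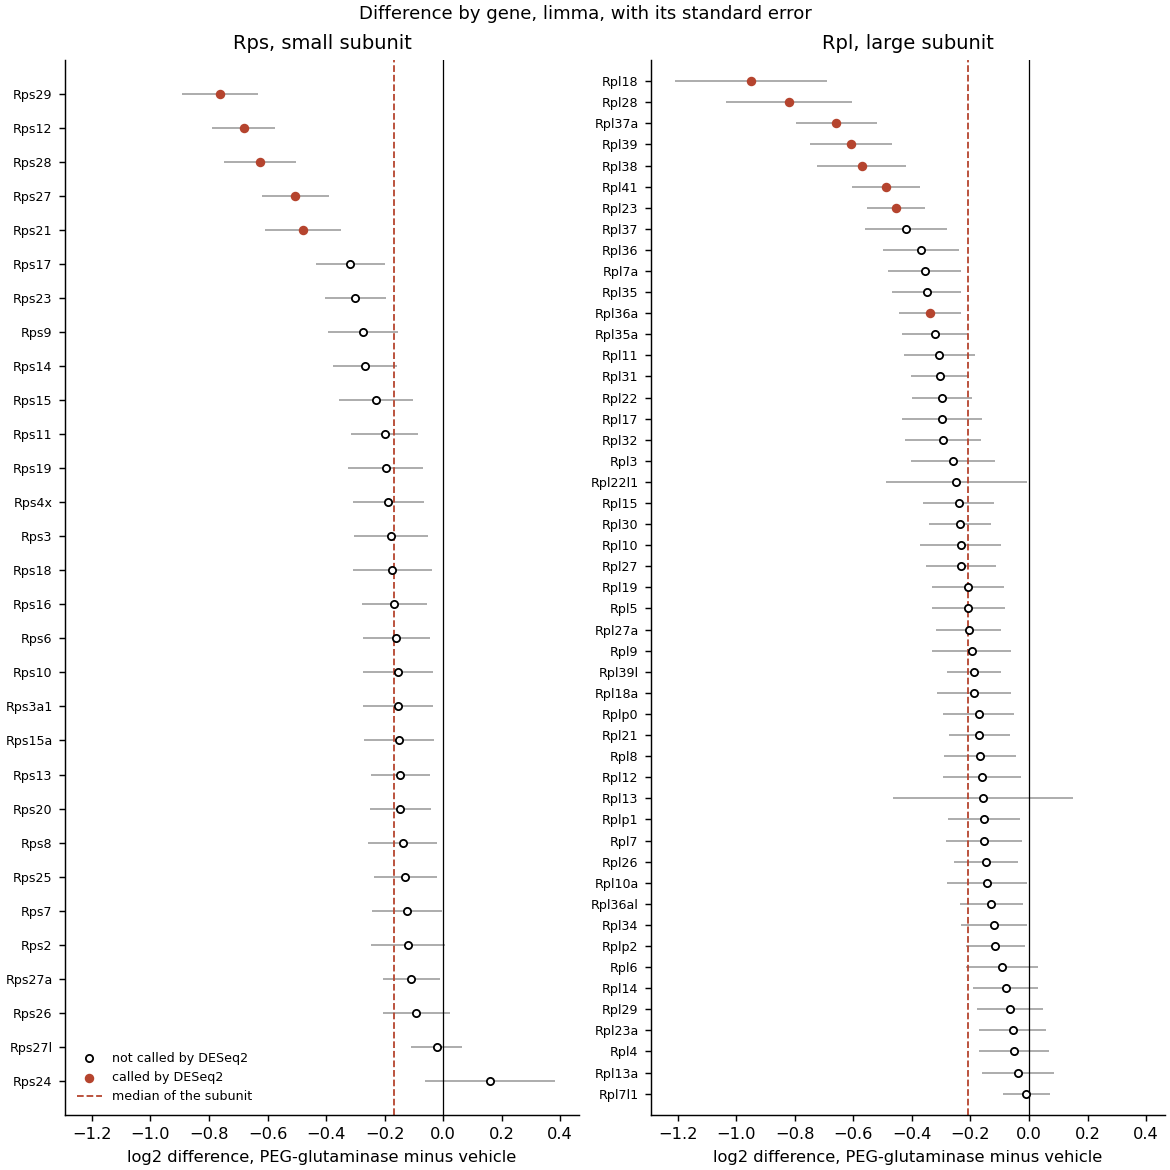
Log2 difference, PEG-glutaminase minus vehicle, of 79 of the 80 tested genes from limma, each with its standard error, for Rps and Rpl. Filled points are the 13 genes called by DESeq2, the solid line is 0 and the dashed line the subunit's median (-0.17 for Rps and -0.21 for Rpl). Only Rps24 lies above 0.

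The 2 subunits lay near each other with all 6 libraries. The median log2 difference was -0.17 over 31 Rps genes (quartiles -0.27 and -0.13) and -0.21 over 49 Rpl genes (quartiles -0.32 and -0.15). Treated tumours lay entirely under vehicle tumours in 11 of 31 Rps genes (35.5%) and 24 of 49 Rpl genes (49.0%), beside 12.7% of all tested genes. DESeq2 called 16.1% of Rps and 16.3% of Rpl genes lower, beside 2.17% of all genes. Within each library, the Rps median deviation from the gene's mean minus the Rpl one was 0.0065, 0.036 and 0.0016 after PEG-glutaminase and -0.025, -0.032 and -0.032 after vehicle. These values did not overlap between the groups, with a mean gap of 0.044 on the log2 scale. Without vehicle 2 the limma medians were -0.046 for Rps and -0.10 for Rpl genes, so that the Rps difference was then no larger than the gap of 0.056 between the subunits. The ratio of Rps to Rpl reads overlapped, at 0.633, 0.644 and 0.624 after PEG-glutaminase and 0.624, 0.630 and 0.637 after vehicle.

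Of 10 members fixed for a role of their own, Rpl38 was called, as given above, and the other 9 were not. Rps6, the substrate of the mTORC1-dependent S6 kinases, had 21606, 19500 and 21306 normalized counts after PEG-glutaminase and 21666, 27213 and 21246 after vehicle. Its groups overlapped, and its log2 difference was -0.16 ± 0.12 (limma adjusted p 0.466). Rpl5 and Rpl11 form with the 5S ribosomal RNA a particle that can inhibit Mdm2. In both, every treated tumour lay under every vehicle tumour, as in 12.7% of all tested genes and 43.75% of tested members. The margin was narrow, with nearest treated and vehicle values of 22790 and 22933 for Rpl5 and 12497 and 12611 for Rpl11. Rpl5 had 21885, 22598 and 22790 after PEG-glutaminase and 24023, 31495 and 22933 after vehicle, a log2 difference of -0.21 ± 0.12 (limma adjusted p 0.385). Rpl11 had 12497, 11030 and 11608 after PEG-glutaminase and 12611, 17373 and 13814 after vehicle, a log2 difference of -0.31 ± 0.12 (limma adjusted p 0.231). Neither was called by any of the 3 tools.

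The stalk proteins Rplp0, Rplp1 and Rplp2, which recruit the elongation factors to the ribosome, also overlapped between the groups. Their log2 differences were -0.17 ± 0.12 for Rplp0, -0.15 ± 0.12 for Rplp1 and -0.11 ± 0.10 for Rplp2 (limma adjusted p 0.458, 0.511 and 0.555). Rps27a, made as a fusion with ubiquitin, had 11800, 12468 and 11730 normalized counts after PEG-glutaminase and 12009, 14552 and 12388 after vehicle, a log2 difference of -0.11 ± 0.10. Rpl10a, a 60S protein that not every ribosome carries in mouse cells, had a log2 difference of -0.14 ± 0.14. Rpl13a, known in human cells for silencing inflammatory transcripts, had 28401, 27106 and 27562 after PEG-glutaminase and 25713, 34374 and 26026 after vehicle, a log2 difference of -0.039 ± 0.12. For Rplp1, Rplp2, Rps27a and Rpl13a the sign turned positive under the correction for transcript length described below, and for Rpl10a and Rpl13a it turned positive without vehicle 2.

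Paralogs were set beside their parents as their share of the reads of the pair. Rps27l, a p53 target in human cells, has a coding sequence as long as that of Rps27 and took 19.0%, 21.6% and 18.1% of the pair's reads after PEG-glutaminase, against 14.99%, 13.3% and 16.3% after vehicle. Rps27l itself hardly differed, with 1808, 1913 and 1631 normalized counts after PEG-glutaminase and 1686, 1912 and 1833 after vehicle, and the lower values were those of Rps27. Rpl39l, the paralog of Rpl39 best known from male germ cells and also of equal coding length, took 21.0%, 26.0% and 18.2% of its pair after PEG-glutaminase, against 16.9%, 16.7% and 17.5% after vehicle. For both pairs the groups did not overlap. Rpl36al took 36.4%, 36.4% and 33.8% of its pair with Rpl36a after PEG-glutaminase and 30.7%, 31.5% and 34.6% after vehicle, with overlap.

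Rpl7l1, a nucleolar relative of Rpl7, took 8.33%, 8.16% and 7.24% of its pair after PEG-glutaminase and 7.38%, 5.99% and 8.41% after vehicle. Rpl22l1 was a trace of its pair with Rpl22, at 0.602% to 0.794% after PEG-glutaminase and 0.626% to 0.794% after vehicle, from 28 to 44 reads per library. Rpl3l, the striated-muscle form of Rpl3, had 0, 3 and 0 reads after PEG-glutaminase and 1, 3 and 1 after vehicle, and the testis form Rpl10l had 0 reads in all 6 libraries. Beside these stand parents with overlapping groups: Rpl3 at -0.26 ± 0.14, Rpl10 at -0.23 ± 0.14 and Rpl7 at -0.15 ± 0.13 on the log2 scale. With 3 tumours in each group no exact test of a single share could give a p under 0.10, so the shares are given as values.

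**Figure D4:**
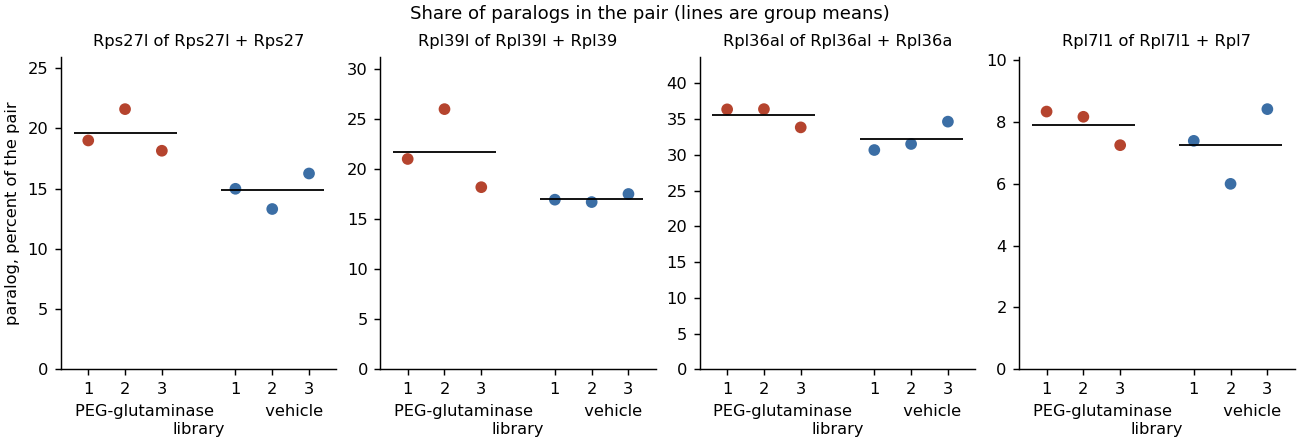
Share of 4 paralogs in the reads of the pair they form with their parent gene, in percent, for each library, with a line at each group's mean. For Rps27l and Rpl39l all 3 PEG-glutaminase tumours (red) lie above all 3 vehicle tumours (blue), and for Rpl36al and Rpl7l1 the groups overlap.

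The called members were mostly those with short transcripts. Transcript lengths come from the GENCODE M21 annotation of the reference mouse genome and are those of the shortest coding transcript marked as principal. Genes with none took another coding transcript, and genes without a coding transcript took their longest one. The median length over the 13 called genes was 483 bases, against 761 over the 67 others. Members of up to 500 bases had a median log2 difference of -0.32 (19 genes), and those of 501 to 750 bases -0.19 (23 genes). Members of 751 to 1000 bases were at -0.21 (21 genes), those of 1001 to 1500 bases at -0.16 (12 genes) and those over 1500 bases at -0.15 (5 genes). DESeq2 called 8 of the 19 shortest, beside 6.19% of the other genes of that length that had an adjusted p. Among those other genes 23.4% lay lower without overlap, against 10.6% of other genes over 1500 bases, and among the 19 members 13 did. Across the 80 genes, which share libraries, Spearman's rho between transcript length and log2 difference was 0.36, given as a description.

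Other genes showed a length trend of their own. Tested genes outside the family had medians of -0.22 at up to 500 bases (286 genes), -0.14, -0.11 and -0.085 in the next 3 classes and 0.025 above 1500 bases (10614 genes). The family, with a median transcript of 680.5 bases against 2719 for other genes, had medians that differed from those of other genes of the same length class by -0.17 to -0.047 on the log2 scale. Without vehicle 2, the members of up to 500 bases were at -0.21 and other genes of that length at -0.19, while members of 501 to 1500 bases were at -0.073 to -0.032 and other genes at -0.10 to -0.052. The part of library-wide length effects in the members' differences was not tested beyond this and the correction that follows. After subtracting each library's curve of deviation on length, the members' median was -0.077 and 61 of 80 were below 0. Then 16 members had an unadjusted p under 0.05 in limma, where 9.35% of all genes were lower at that level, and 0 were called, where 0.0443% of all genes were called lower and 0.0148% higher. With the correction and without vehicle 2 the median was -0.0015 and 40 of 80 were below 0.

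The length correction left some members well below 0. The log2 difference after correction was -0.80 for Rpl18, -0.69 for Rpl28, -0.54 for Rps29, -0.49 for Rps12, -0.49 for Rpl37a and -0.45 for Rpl39. Other called members were brought nearer to 0 by more than 1.5 times, to -0.37 for Rps28, -0.34 for Rpl38, -0.28 for Rpl41, -0.27 for Rps27, -0.26 for Rps21 and -0.15 for Rpl36a. None of the called members passed in limma after correction, where the smallest adjusted p after correction was 0.0881, shared by Rps12 and Rps29. By coding sequence, 11 tested members had up to 300 bases, a bound chosen after the values were seen, and DESeq2 called 8 of them. Their median log2 difference was -0.50, and -0.41 without vehicle 2. The 69 members with longer coding sequences had medians of -0.17 and, without vehicle 2, -0.049. The share of other genes with such short coding sequences is not given here, so this split is not set apart from the length trend above.

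**Figure D5:**
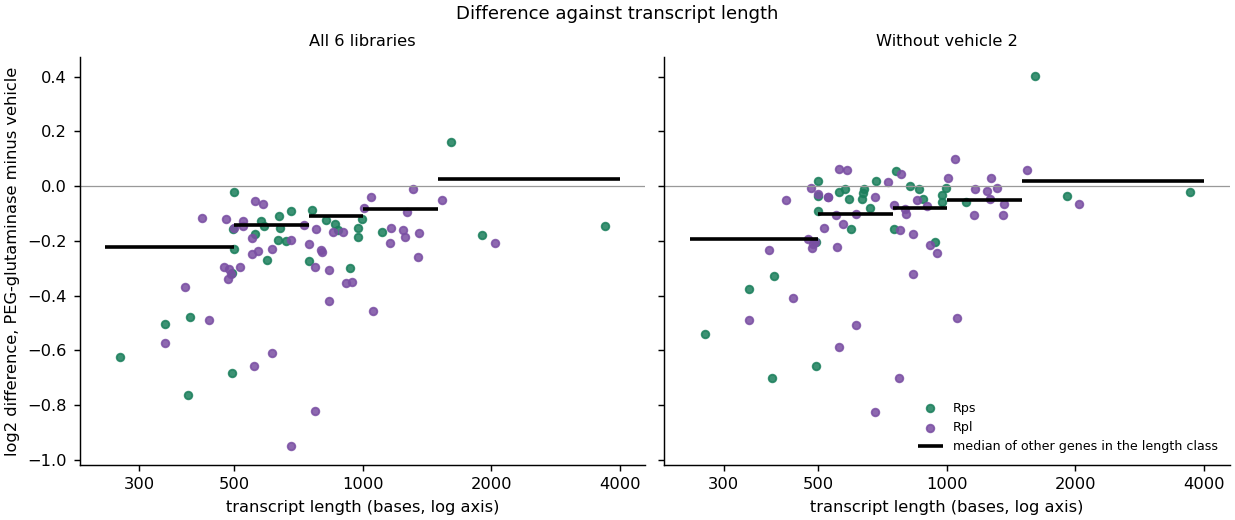
Log2 difference, PEG-glutaminase minus vehicle, against transcript length (bases, log axis) for Rps and Rpl genes, with all 6 libraries and without vehicle 2. Black bars are medians of the other tested genes in 5 length classes, the last of which holds all lengths over 1500 bases. Without vehicle 2 most members over 500 bases lie near 0, while Rps29, Rps28, Rps12, Rpl37a, Rpl28 and Rpl18 stay at or below -0.54.

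Levels per length differed widely within the family, although ribosomes hold most of these proteins in equal number. Per kilobase of transcript, the highest Rps gene was Rps18, at 56150.5 ± 3069 normalized counts after PEG-glutaminase and 63986 ± 12225 after vehicle, followed by Rps9, at 36843 ± 1815 after PEG-glutaminase and 44801 ± 6563 after vehicle (SD, n = 3 each). The highest Rpl genes were Rplp1, at 78916 ± 2644 after PEG-glutaminase and 88501 ± 13892 after vehicle, then Rpl8, at 45909 ± 2889 after PEG-glutaminase and 51835 ± 7756 after vehicle, and Rpl41, at 39982 ± 2673 after PEG-glutaminase and 56348 ± 7296 after vehicle. The quartiles over all libraries were 19040 and 30060 for Rps and 12164 and 26931 for Rpl genes. In the tested genes the lowest Rps levels were those of Rps20, whose annotated transcript is unusually long, Rps27l and Rps12, and the lowest Rpl levels those of Rpl22l1, Rpl23 and Rpl18. Rps12, at 3701 ± 267 per kilobase after PEG-glutaminase and 5962 ± 807 after vehicle, lay far under the Rps quartiles. Rpl24, a core 60S protein, had 8, 10 and 13 reads after PEG-glutaminase and 10, 9 and 6 after vehicle and was not tested.

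Ribosomal protein genes have many near-identical processed pseudogenes, with which reads can be shared. The table held 151 gene models named as such pseudogenes, 76 of them with at least 1 read, and together they took 0.0422% to 0.0624% of the reads of a library. The sources used here do not say how reads that fit several places were counted, so the levels of single members are uncertain. Of 25 pseudogene models that were tested, 21 had a log2 difference below 0, with a median of -0.34. limma called 0 of them, with 10 lower and 0 higher at an unadjusted p under 0.05, where 9.51% of all tested genes were lower. DESeq2 called 6 of these pseudogene models lower, where 2.17% of all genes were called lower. Rps12-ps24, a copy of Rps12, had 1283, 1008 and 981 normalized counts after PEG-glutaminase and 1372, 1858 and 1855 after vehicle. Its log2 difference of -0.63 was near that of Rps12 itself, and reads of the 2 may be shared.

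The starts of members were read from RefSeq promoters of GRCm38.p6 and are shown because the pyrimidine run at the start is the family's regulatory hallmark. Promoters were found for 63 of the 83 members, 23 Rps and 40 Rpl genes. Each window below has 30 bases, 15 before the annotated start and 15 from it, on the gene's own strand, with the longest run of C or T in capitals. For a gene with several promoters, the one with the longest run was used. Runs anywhere in the window were counted, before or after the start, so they are not counts of TOP motifs. The genes were chosen after their values were seen: the first 5 were called and the last 4 were among the smallest or, for Rps24, the only positive difference.
Rps12: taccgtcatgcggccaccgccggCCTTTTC
Rps27: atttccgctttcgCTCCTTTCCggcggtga
Rps28: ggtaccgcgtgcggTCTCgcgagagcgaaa
Rpl38: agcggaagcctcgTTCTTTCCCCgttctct
Rpl28: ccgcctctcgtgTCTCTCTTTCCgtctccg
Rps24: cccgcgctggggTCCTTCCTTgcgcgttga
Rps27l: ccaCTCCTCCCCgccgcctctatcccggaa
Rpl13a: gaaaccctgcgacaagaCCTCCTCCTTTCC
Rpl7l1: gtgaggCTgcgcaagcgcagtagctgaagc

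These windows lie at chr10:23787195-23787224 (minus strand) for Rps12, chr3:90213634-90213663 (minus) for Rps27, chr17:33824548-33824577 (minus) for Rps28, chr11:114668565-114668594 (plus) for Rpl38 and chr7:4792950-4792979 (plus) for Rpl28. They lie at chr14:24490663-24490692 (plus) for Rps24, chr9:66946071-66946100 (plus) for Rps27l, chr7:45128731-45128760 (minus) for Rpl13a and chr17:46782642-46782671 (minus) for Rpl7l1. A run of at least 6 consecutive C or T, on the gene's strand, was in the window of 38 of 63 members (60.3%), against 32.7% of all 27025 genes in the promoter table. It was in 15 of 23 Rps and 23 of 40 Rpl genes. Among the called genes it was in 7 of 12, and among tested genes not called in 31 of 48, so a run anywhere in the window did not separate them. Rps28, called, has only 4 such bases in a row, and Rpl13a, with one of the smallest differences, has 13. The tested members with a run had a median log2 difference of -0.19 and those without it -0.20. The ETS-type sequence CCGGAA, on either strand within the 250 bases before and 50 bases from the start, was in 34 of 63 members (54.0%) and in 16.7% of all genes. It was in 6 of 12 called genes and in 28 of 48 tested genes not called.

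Rpsa and Rack1, ribosome components that the naming rule misses, overlapped between the groups. Rpsa, a 40S protein also known as the laminin receptor, had 54735, 51268 and 52547 normalized counts after PEG-glutaminase and 53433, 67645 and 54375 after vehicle (log2 difference -0.14 ± 0.12, limma adjusted p 0.547). Rack1, a signalling scaffold on the 40S subunit, had 40098, 35676 and 39725 after PEG-glutaminase and 38329, 52287 and 35867 after vehicle (log2 difference -0.11 ± 0.14, limma adjusted p 0.697). Vehicle 2 was the highest library for both. Fau, a ubiquitin-like fusion with a 40S protein, had 0 reads in all 6 libraries. How reads that fit several places were counted is not stated, so this is not read as absence of the transcript.

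The pathway's other genes were counted by list. Of 15 tested non-ribosomal TOP transcripts, which encode elongation and initiation factors and others, 11 were lower and 4 higher, with a median log2 difference of -0.11. limma called 0 of them, with 3 lower and 0 higher at an unadjusted p under 0.05, where 9.51% of all tested genes were lower. Over all genes DESeq2 called 2.17% lower. DESeq2 called 1, Eif4b, a helicase cofactor in initiation, at 5798, 5165 and 5880 normalized counts after PEG-glutaminase and 7250, 7286 and 6717 after vehicle (DESeq2 adjusted p 0.0147). Tpt1, a growth-related TOP transcript, had 41034, 38106 and 41793 after PEG-glutaminase and 50580, 62682 and 43203 after vehicle (DESeq2 adjusted p 0.0677). Without vehicle 2 the median of this list was -0.019. Eef1a1, also in the list, fell under the filter and was not tested, at 2.1 to 9.9 normalized counts after PEG-glutaminase and 5.9 to 13.5 after vehicle. As for Fau, the handling of reads that fit several places is not stated, so this is not read as a low level of the transcript.

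Of 56 tested ribosome biogenesis genes, 43 were higher and 13 lower, with a median log2 difference of 0.085, and 0.10 without vehicle 2. 14 were higher at an unadjusted p under 0.05 in limma and 0 lower, where 8.92% of all tested genes were higher and 9.51% lower. limma, edgeR and DESeq2 each called 0. Tcof1, a nucleolar factor of ribosomal RNA transcription, had 3048, 2675 and 2705 normalized counts after PEG-glutaminase and 2371, 2055 and 2424 after vehicle (log2 difference 0.30 ± 0.09, limma adjusted p 0.156). The groups did not overlap for Tcof1 or for the nucleolar helicase Ddx21, at 5389, 5365 and 5066 after PEG-glutaminase and 4638, 4105 and 4595 after vehicle (log2 difference 0.25 ± 0.08, limma adjusted p 0.175). Of all tested genes, 13.1% had every PEG-glutaminase value above every vehicle value.

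Of 11 RNA polymerase I genes, 7 were higher and 4 lower, with a median log2 difference of 0.035. 1 was higher and 3 lower at an unadjusted p under 0.05, where 8.92% of all tested genes were higher and 9.51% lower. limma, edgeR and DESeq2 each called 0. Taf1d, a subunit of the polymerase's promoter selectivity factor, had 469, 539 and 505 normalized counts after PEG-glutaminase and 620, 637 and 643 after vehicle (log2 difference -0.33 ± 0.09, limma adjusted p 0.137). Of 10 regulators of ribosomal protein messengers, among them Myc, Larp1 and Mtor, 7 were higher and 3 lower with a median of 0.074. 1 of them, the translation repressor Eif4ebp2, was higher at an unadjusted p under 0.05 (log2 difference 0.23 ± 0.08, limma adjusted p 0.189), and none was called by limma, edgeR or DESeq2.

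Of 10 p53 targets and regulators, a list included because free ribosomal proteins can stabilise p53, 9 were higher and 1 lower, with a median log2 difference of 0.20. limma called 0 of them, with 6 higher and 0 lower at an unadjusted p under 0.05, where 8.92% of all genes were higher, and DESeq2 called 2 higher, where 1.73% of all genes were. Cdkn1a, the p21 inhibitor of the cell cycle, had 4227, 3740 and 3527 normalized counts after PEG-glutaminase and 2577, 3195 and 2835 after vehicle (DESeq2 adjusted p 0.0136). Zmat3, a p53-induced RNA-binding protein, had 1394, 1710 and 1239 after PEG-glutaminase and 1146, 1064 and 1009 after vehicle (DESeq2 adjusted p 0.0419). In both genes all treated tumours lay above all vehicle tumours, as they did in 13.1% of all tested genes.

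The authors' deposited table gave the family lower values too. Its comparison rests on mean values that differ from those of the 6 libraries by over 1% in 78.0% of gene models, so it need not derive from these 6 columns as they stand. Of 79 members with an adjusted p in the authors' deposited table, 25 were called lower at 0.05 and 0 higher, where 1.96% of gene models were called lower and 1.98% higher. The 25 were 9 of 31 Rps and 16 of 48 Rpl genes. In the authors' deposited table Rps12 had the smallest p of all gene models, with a log2 fold change of -0.64 and an adjusted p of 1.93e-05. Of the 13 members called by DESeq2 here, 12 were called in the authors' deposited table; the exception was Rpl18, with an adjusted p of 0.371 there. Rpl11, not called here, had a log2 fold change of -0.34 and an adjusted p of 0.0287 in the authors' deposited table.

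Markers of some other cell types differed between the groups as well. Over all tested genes, 9.51% were lower and 8.92% higher at an unadjusted p under 0.05 in limma. DESeq2 called 2.17% of all genes lower and 1.73% higher. Of 12 tested T and NK cell markers, 12 were lower after PEG-glutaminase, with a median log2 difference of -1.64 and summed levels of 598 to 3409 normalized counts, against 4226 to 5036 after vehicle. limma called 0 of them, with 1 at an unadjusted p under 0.05, and DESeq2 called 1. 3 of 6 erythroid markers were tested and all 3 were higher, with sums of 953 to 1310 after PEG-glutaminase and 480 to 590 after vehicle. limma called 1 of these, Hbb-bs, edgeR called 1 and DESeq2 called 2. All 10 proliferation markers were higher, with sums of 39752 to 46614 after PEG-glutaminase and 33241 to 36642 after vehicle and a median log2 difference of 0.24. limma called 0 of these, with 5 at an unadjusted p under 0.05, and DESeq2 called 2. All 6 endothelial markers were higher, with sums of 2946 to 4037 after PEG-glutaminase and 2824 to 2949 after vehicle, which overlapped. limma called 0 of them, with 2 at an unadjusted p under 0.05, and DESeq2 called 1, Kdr. Of 9 macrophage markers 5 were higher and 4 lower, with a median log2 difference of 0.099, and -0.073 without vehicle 2. DESeq2 called 1 of these, Mrc1, higher (adjusted p 0.00259). Of 6 tested colon epithelium markers 2 were higher and 4 lower, and DESeq2 called 1, Krt20, lower (adjusted p 0.0103). limma called neither Mrc1 nor Krt20. Keratinocyte markers summed to 64 to 84 after PEG-glutaminase and 98 to 8087 after vehicle, where vehicle 1 held the highest value, and skeletal muscle markers to 167 to 1970 after PEG-glutaminase and 288 to 1212 after vehicle. PEG-glutaminase 2, the library with the lowest ribosomal protein share, had the lowest T and NK cell sum of the 6 libraries (598) and the highest proliferation (46614), endothelial (4037) and fibroblast (37712) sums. Vehicle 2, the library with the highest ribosomal protein share, was at the opposite end of these 4 sums, at 5036 for T and NK cell, 33241 for proliferation, 2824 for endothelial and 23122 for fibroblast markers. Sums rest mostly on abundant genes. Col1a1 and Col3a1 were highest in PEG-glutaminase 2 and lowest in vehicle 2, while Dcn and Dpt were the reverse. By the median deviation of a list's tested genes, vehicle 2 was at an end for only the endothelial list (-0.23) of these 4. It was also lowest of the 6 libraries for the macrophage list (-0.19) and highest for the colon epithelium list (0.24). The T and NK cell median was highest in vehicle 3 (0.83), the proliferation median lowest in vehicle 1 (-0.12) and the fibroblast median lowest in PEG-glutaminase 1 (-0.26). Vehicle 2 was not at either end of the keratinocyte or muscle sums. The part of these cell types in the ribosomal protein differences was not tested.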

How the data were processed

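Messenger RNA of 6 CT26 tumours was captured on poly-T beads and primed with random hexamers, per the labels' protocols, and groups and replicate numbers came from the sample titles. The authors deposited 1 table of expression signal: read counts per BALB/cJ gene model divided by a library size factor. Further deposited columns give a comparison by the authors in log2 fold changes, a Wald score and p-values, per the file headers. Tools listed by the submitters' processing notes, with no version, are STAR, featureCounts, FastQC and both DESeq and DESeq2. The sources used here give no aligner settings, genome build, strand or handling of multiply mapped reads. Of 40396 rows, 93 repeat a gene model and each model was used once.

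Dividing by the value of a single read gave whole numbers in 100% of non-zero entries (tolerance 0.01), so whole reads were recovered. As the values are not raw counts, the chosen test was that of limma 3.58.1 (R 4.3.3; trend, robust, two-sided), applied to log2(value + 1) for 13557 genes with a mean of at least 10, with Benjamini-Hochberg adjustment at 0.05; log2 differences of low genes are understated by the pseudocount. DESeq2 1.42.0 and edgeR 4.0.16 (quasi-likelihood, TMM) ran on the recovered reads. Tests were tried on simulated data, in which all 3 tools recovered most large changes and a larger share of DESeq2's calls than of limma's were false. The share of false calls among genes that shift together within a library, or with transcript length, was not tested. Each library is 1 mouse, so p-values rest on the spread between mice.

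Alternatives were other pseudocounts, filters, scalings, tools, a replicate block, a correction for transcript length (lowess span 0.3 per library; lengths from GENCODE M21 for 99.4% of tested genes) and each library left out. DESeq2 and the length correction without each library were chosen after seeing the data. The members and gene lists were chosen with earlier results of these data known. Named genes were the 5 members of smallest limma p in each direction (only 1 was higher), the 3 highest and lowest per kilobase in each subunit, paralogs with their parents, a fixed set of 10 members, the 4 components outside the naming rule, and up to 4 genes of smallest p per list, not all of which are given; 2 of these genes are not reported here, and 1 is not drawn in the plot of single differences. Motif searches used 27025 genes of the RefSeq promoter table.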

Additional observations from a re-analysis of the deposited data

How the results depend on the processing

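No alternative run gave a called member with a higher value, and the members' median log2 difference stayed below 0 in each of them. The number of called members, 0 in limma, was 6 with no filter on low values (4 Rps and 2 Rpl, beside 0.306% of all genes called lower) and 13 with DESeq2 (5 Rps and 8 Rpl). With single libraries left out it ran from 0 to 21 (0 to 7 Rps and 0 to 14 Rpl), where limma gave 0 throughout and DESeq2 8 to 21. Over all genes, 5 were called, against 487 with DESeq2, 136 with no filter, 8 with the length correction, 1 with the replicate block and 0 to 670 with a library left out. Same-numbered libraries deviated with correlations of -0.129, -0.214 and -0.22, which gave no sign that the numbers pair samples. Deviations from a mean of 3 libraries are bound to each other, so this check cannot exclude pairing. The replicate block called 0 members. Leaving out a library alone kept the members' median between -0.26 and -0.065 in limma, the Rps median between -0.24 and -0.046, the Rpl median between -0.28 and -0.10 and the Rps minus Rpl gap between 0.027 and 0.059. Over limma, DESeq2 and the length correction with a library left out, the outer values were -0.27 and -0.0015 for the members, -0.25 and 0.029 for Rps, -0.30 and -0.022 for Rpl, and 0.027 and 0.073 for the gap; each upper end came from the length correction and a left-out library together. The difference in share of reads, -0.97 percentage points, ran from -1.33 to -0.34, the last without vehicle 2. The length correction turned the sign of the log2 difference for Rpl13a (0.053), Rpl36al (0.052), Rpl7l1 (0.060), Rplp1 (0.032), Rplp2 (0.094), Rps27a (0.045) and Rps27l (0.16), none of them called before or after. With a library left out alone, signs turned for Rack1, Rpl10a, Rpl13a, Rpl7l1 and Rps27l in limma and DESeq2, and for Rps24 in DESeq2 only; with the length correction added, the outer values were Rack1 -0.23 to 0.082, Rpl10a -0.25 to 0.10, Rpl13a -0.12 to 0.15, Rpl7l1 -0.048 to 0.096, Rps27l -0.076 to 0.22 and Rps24 -0.011 to 0.42. The following kept their sign with a library left out alone and turned only where the length correction was applied too: Mtor -0.010 to 0.26, Rpl22l1 -0.33 to 0.030, Rpl36al -0.22 to 0.11, Rpl39l -0.25 to 0.022, Rpl7 -0.25 to 0.037, Rpl8 -0.26 to 0.023, Rplp1 -0.24 to 0.10, Rplp2 -0.22 to 0.13, Rps18 -0.28 to 0.10, Rps27a -0.17 to 0.080, Rps4x -0.27 to 0.00047 and Rps6 -0.23 to 0.023. The cause of these changes was not tested, beyond the smaller groups that leaving out a library leaves. With 3 tumours a group, an exact permutation test of a single value could not give a p under 0.10. Depth limited Rpl22l1 (28 to 44 reads a library), Rpl24 and Rpl3l, and was not the limit for the other tested members, which had at least 471 reads in each library.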
